A study of Mus musculus with 10 samples.

Results

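The mu-class glutathione S-transferase genes Gstm1, Gstm2, Gstm3, Gstm4, Gstm6 and Gstm7 are described here in hepatocytes that lack Nrf2, p65 or both. The 6 genes were chosen by symbol, through the Ensembl gene identifiers of the deposited table, and make up 6 of its 21939 genes. All 6 passed the filter on low counts. RNA was sequenced from freshly isolated hepatocytes of male mice, 12 days after the injection of AAV8Cre, with 1 library per mouse. The age is given as 8 to 9 weeks, without saying whether at injection or at sampling. For its injury experiment the study describes mice 12 days after injection as older than that. The control group (n = 3) was C57BL/6J mice without floxed alleles, and the mice with floxed alleles shared that background. The Nrf2 KO group (n = 2) carried Nrf2 flox/flox and the p65 KO group (n = 2) carried p65 flox/flox. The DKO group (n = 3) carried floxed alleles of both genes. All 4 groups, control included, received AAV8Cre, an adeno-associated virus that expresses Cre recombinase from the thyroxine-binding globulin promoter, which is active in hepatocytes. The floxed alleles without Cre were not sequenced, and cells other than hepatocytes kept their genes.

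Glutathione S-transferases join the thiol of glutathione to electrophilic compounds, such as epoxides and products of lipid peroxidation, which are then exported from the cell. The mu class is 1 of the cytosolic classes, and its proteins act as dimers that can form between different mu-class subunits. Nrf2, encoded by Nfe2l2, is a transcription factor that activates genes of detoxification and glutathione metabolism through antioxidant response elements, and p65, encoded by Rela, is a subunit of the transcription factor NF-κB. The comparisons ask how the expression of these enzymes differed without each factor and without both.

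The members are neighbours on chromosome 3 of GRCm39, on the minus strand. In order of position, Gstm7 (ENSMUSG00000004035) lies at chr3:107832278-107839187, Gstm6 (ENSMUSG00000068762) at chr3:107844454-107851103, and Gstm3 (ENSMUSG00000004038) at chr3:107871012-107881730. Gstm2 (ENSMUSG00000040562) follows at chr3:107889004-107893785, Gstm1 (ENSMUSG00000058135) at chr3:107919380-107925380, and Gstm4 (ENSMUSG00000027890) at chr3:107947721-107952210. Gstm5, a mu-class gene known best from testis and brain, lies beside Gstm7 on the plus strand at chr3:107803137-107806005 and was used for comparison only.

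The members resemble each other in sequence, which bears on how reads can be assigned to them. Each has a coding sequence of 657 bases, and the identity between 2 members ranged from 79.1% for Gstm3 and Gstm4 to 89.5% for Gstm3 and Gstm1. Gstm5 was 68.1% to 71% identical with the members. The first 90 coding bases of each member, from the canonical transcripts of GENCODE M39, are printed to show how far the genes can be told apart, with capitals at the bases that differ from Gstm1, of which there are between 11 in Gstm3 and 20 in Gstm6.
Gstm1: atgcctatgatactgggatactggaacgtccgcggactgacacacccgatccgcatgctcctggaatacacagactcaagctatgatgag
Gstm2: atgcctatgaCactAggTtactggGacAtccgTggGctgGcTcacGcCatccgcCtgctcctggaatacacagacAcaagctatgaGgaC
Gstm3: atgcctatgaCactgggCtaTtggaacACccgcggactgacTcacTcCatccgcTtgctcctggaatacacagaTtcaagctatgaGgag
Gstm4: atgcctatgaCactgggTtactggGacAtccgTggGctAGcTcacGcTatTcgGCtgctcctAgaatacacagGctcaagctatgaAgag
Gstm6: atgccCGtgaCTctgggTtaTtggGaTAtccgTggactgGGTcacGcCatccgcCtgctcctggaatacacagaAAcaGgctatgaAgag
Gstm7: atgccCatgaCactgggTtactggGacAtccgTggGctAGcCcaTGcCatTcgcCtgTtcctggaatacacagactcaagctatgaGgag

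The stretches that 2 members share without any difference reached 112 bases between Gstm3 and Gstm1 and 125 bases between Gstm6 and Gstm3, which is longer than a read. Of all the 31-base words in the annotated transcripts of a gene, the share also found in another gene was 28.2% for Gstm3, 18.1% for Gstm2, 14.4% for Gstm1, 12.2% for Gstm6, 2.52% for Gstm4 and 1.27% for Gstm7. The closest other gene was a pseudogene for Gstm3, Gstm2 and Gstm1. The counts of Gstm3, Gstm2, Gstm1 and Gstm6 therefore depend on how the authors' quantification split such reads, and those of Gstm4 and Gstm7 depend on it least.

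Upstream sequence is printed for Gstm1 and Gstm7, because Gstm1 passed the test in Nrf2 KO and Gstm7 did not, as described after the levels. The 250 bases before the Gstm1 start lie at chr3:107925381-107925630 and those before the Gstm7 start at chr3:107839188-107839437, both read on the minus strand. Neither holds the core of the antioxidant response element, TGACNNNGC, on either strand, so no base is in capitals.
Gstm1: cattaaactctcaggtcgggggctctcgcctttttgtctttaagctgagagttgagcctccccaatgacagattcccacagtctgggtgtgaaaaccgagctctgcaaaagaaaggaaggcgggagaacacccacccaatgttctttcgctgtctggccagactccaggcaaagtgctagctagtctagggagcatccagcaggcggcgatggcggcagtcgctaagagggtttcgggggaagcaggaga
Gstm7: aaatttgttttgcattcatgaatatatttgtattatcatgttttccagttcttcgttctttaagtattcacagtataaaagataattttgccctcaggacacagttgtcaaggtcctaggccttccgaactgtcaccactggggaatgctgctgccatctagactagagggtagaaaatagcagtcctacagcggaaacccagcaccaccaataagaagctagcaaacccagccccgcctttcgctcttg

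These windows end at the start of the canonical transcript, which for 5 members is also the start of the gene as annotated. For Gstm3 it lies 5131 bases inside the gene (window at chr3:107876600-107876849), so the bases before the outermost start at 107881730 were searched as well. None of the 6 members had the core within 250 bases upstream of the start of the canonical transcript, and neither had Gstm3 before its outermost start, where 9.71% of 21593 genes had it. Within 2000 bases upstream of the canonical transcript it was found in 3 of the 6 members, Gstm1, Gstm6 and Gstm7, against 46.3% of 21584 genes. Gstm3 had 1 match within 2000 bases of its outermost start. These matches began 1562 bases before the start of Gstm1, 1337 bases before that of Gstm6 and 1425 bases before that of Gstm7. They are printed with the match in capitals, from chr3:107926919-107926957, chr3:107852417-107852455 and chr3:107840589-107840627 on the minus strand, and the match of Gstm6 reads as the core on the opposite strand.
Gstm1: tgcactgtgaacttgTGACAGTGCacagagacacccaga
Gstm6: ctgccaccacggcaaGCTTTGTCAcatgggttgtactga
Gstm7: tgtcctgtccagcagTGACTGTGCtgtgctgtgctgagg

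The NF-κB consensus was found within 2000 bases upstream of Gstm2 alone among the members, 1226 bases before its start, against 30.6% of all genes. No member had it within 250 bases, where 7.63% of all genes did. The core of the antioxidant response element was present within 2000 bases upstream of Gstm1, which fell in Nrf2 KO and DKO. It was also present upstream of Gstm6, which fell in DKO, and of Gstm7, whose counts did not pass the test in any comparison. It was absent from both windows of Gstm4, which fell, and of Gstm2, which did not pass by edgeR in any comparison. For Gstm3, which also fell, it depended on which start was taken. Gstm5, which did not pass either, had the core within 250 and within 2000 bases. From published ChIP-seq of mouse liver, the study names Gstm1 and Gstm3 among the genes bound by Nrf2. It places Nrf2 sites both in promoters and in distal enhancers. Sites beyond 2000 bases were not searched here, and the relation of the matches to the counts was not tested.

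The libraries held between 33707165 and 49897382 estimated counts. The 6 hepatocyte markers, albumin among them, were high as the label says, with a summed level of between 3395140 and 5406830 normalized counts in the 10 libraries. Rela, targeted in p65 KO and DKO, was not lower (1196 ± 18.6 normalized counts in p65 KO, n = 2, and 1255 ± 227 in DKO, n = 3, against 1256 ± 29.9 in control, n = 3, mean ± SD). Nfe2l2, targeted in Nrf2 KO and DKO, was higher in total (4872 ± 188 and 4261 ± 912 against 2100 ± 189). Counts of the whole gene do not resolve the deleted exons, so they do not check the labels. The 7 Kupffer cell markers summed to between 232 and 661 normalized counts in control, 167 and 524 in Nrf2 KO, 3111 and 4332 in p65 KO, and 1098 and 1977 in DKO. The 4 endothelial markers summed to between 392 and 973 in control and Nrf2 KO, 1846 and 2494 in p65 KO, and 896 and 1242 in DKO, and the 4 stellate cell markers to between 126 and 315, 1379 and 1403, and 222 and 615. Markers of T and NK cells, B cells and neutrophils summed to at most 10.4, 6.73 and 18.0 in any library, cholangiocyte markers to at most 253 and erythroid markers to at most 834.

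In control hepatocytes Gstm1 was by far the most abundant member. To compare genes, normalized counts were divided by the length of the canonical transcript. Gstm1 stood at 77738 ± 7803 normalized counts per kilobase (mean ± SD, n = 3 in control throughout), and Gstm3 followed at 3798 ± 1367. Gstm4 was at 2519 ± 219 normalized counts per kilobase, Gstm2 at 1658 ± 367, Gstm7 at 1597 ± 187 and Gstm6 at 1246 ± 62.1. Gstm5 was lowest, at 333 ± 20.4 normalized counts per kilobase. The control libraries of Gstm3 and Gstm4 overlapped on this scale, as did those of Gstm2 and Gstm7, so that their order is not resolved, whereas the ranges of Gstm1 and Gstm3, of Gstm4 and Gstm2, and of Gstm7 and Gstm6 did not overlap.

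The order of the levels differed between genotypes below the first place, which Gstm1 kept in all 4 groups. In Nrf2 KO Gstm7 came second, at 1684 ± 176 normalized counts per kilobase (n = 2), and Gstm3 had the lowest mean of the members, at 487 ± 174. The Nrf2 KO libraries of Gstm3 and Gstm2 overlapped, so that the last place is not resolved. In DKO Gstm7 was also second, at 1512 ± 35.0 (n = 3), and the other 4 members lay between 688 ± 163 for Gstm6 and 914 ± 268 for Gstm4, with libraries that overlapped. In p65 KO, Gstm3 was second at 4632 ± 57.4 normalized counts per kilobase (n = 2) followed by Gstm2 at 2113 ± 502.

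**Figure D1:**
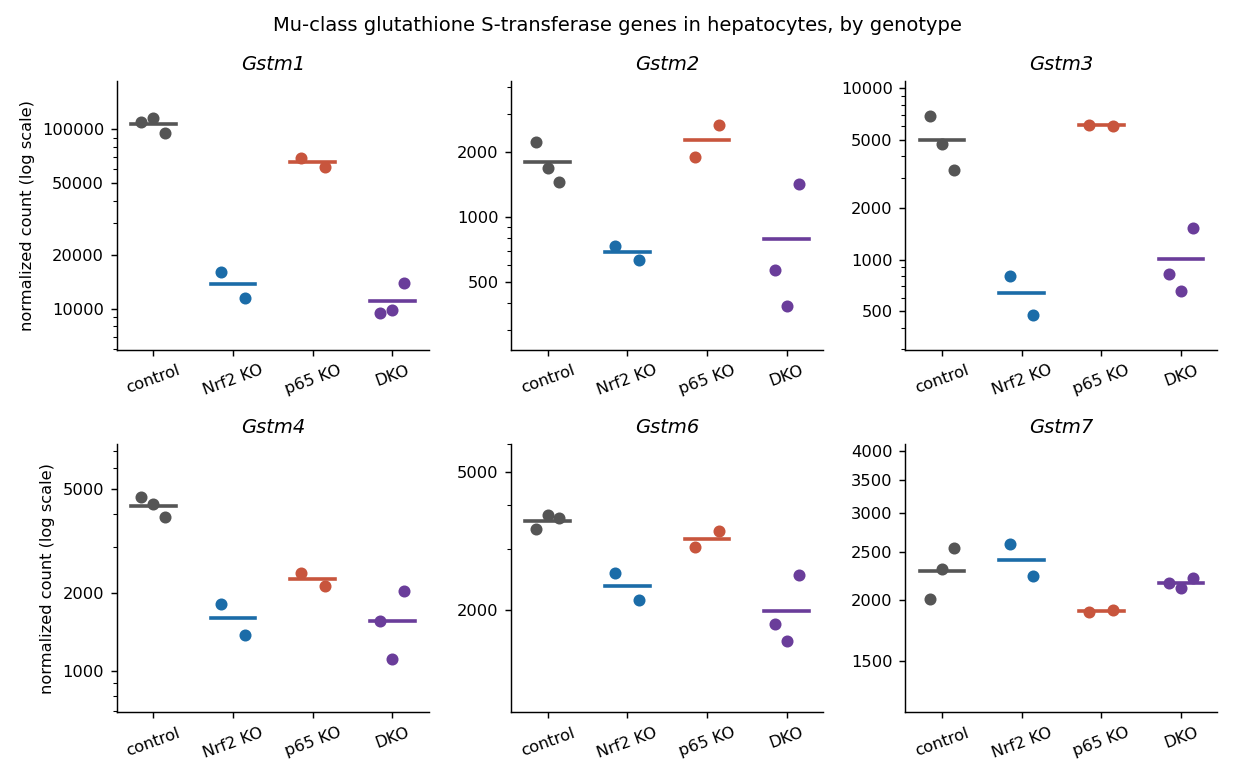
Normalized counts of the 6 members (log axis, a different range in each panel) in each library, by genotype; points are mice and lines are group means. Gstm1 and Gstm3 sit lowest in Nrf2 KO and DKO, and Gstm7 lies between 1891 and 2587 in all 10 libraries.

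Nrf2 KO hepatocytes had less Gstm1, Gstm3 and Gstm4 RNA than control hepatocytes. Gstm1 had 110478, 116086 and 95274 normalized counts in the control libraries and 16030 and 11566 in the Nrf2 KO libraries. Its mean in Nrf2 KO was 12.9% of the control mean, and it fell by 2.96 ± 0.22 on the log2 scale (SE, edgeR's quasi-likelihood test, adjusted p = 0.000219). Gstm3 had 6875, 4748 and 3313 normalized counts in control, a wider spread than that of Gstm1, and 799 and 477 in Nrf2 KO. Both Nrf2 KO libraries were below every control library, and Gstm3 fell by 2.97 ± 0.41 on the log2 scale (edgeR, adjusted p = 0.00921). Gstm4 had 4645, 4366 and 3904 normalized counts in control against 1813 and 1370 in Nrf2 KO. Its decrease was smaller, at a log2 fold change of -1.44 ± 0.22 (edgeR, adjusted p = 0.0174).

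The other 3 members did not pass the test in Nrf2 KO. Gstm2 had 2236, 1690 and 1462 normalized counts in control and 739 and 637 in Nrf2 KO. Its libraries did not overlap, with a log2 fold change of -1.38 ± 0.44 and an adjusted p of 0.291 in edgeR. Gstm6 had 3412, 3758 and 3671 normalized counts in control and 2563 and 2135 in Nrf2 KO, also without overlap (log2 fold change -0.62 ± 0.17, edgeR, adjusted p = 0.211). Gstm7 had 2007, 2311 and 2539 normalized counts in control and 2587 and 2232 in Nrf2 KO. These groups overlapped, and the log2 fold change of Gstm7 was 0.08 ± 0.12 (edgeR, adjusted p = 0.91).

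A gene was called where its adjusted p was no higher than 0.05 and its fold was 1 or more in size on the log2 scale. By this rule 3 of the 6 members were called lower in Nrf2 KO, against 0.44% of the 13641 genes tested. The same 3 members passed the adjusted p without regard to the fold, against 0.594% of all genes that were lower in this way. For 5 of the 6 members both of the Nrf2 KO values were lower than the lowest control value, as was the case for 13.6% of all genes. Without Nrf2 KO replicate 1 or 2 the group is a single library, assumed to vary like the other groups, and 1 member remained called, Gstm1. The log2 fold changes were then -3.38 and -2.64 for Gstm3 (adjusted p = 0.0500136 and 0.191) and -1.65 and -1.25 for Gstm4 (adjusted p = 0.0703 and 0.278). The call of Gstm4 was also lost without control replicate 1 or 2 (adjusted p = 0.0614 and 0.0593).

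**Figure D2:**
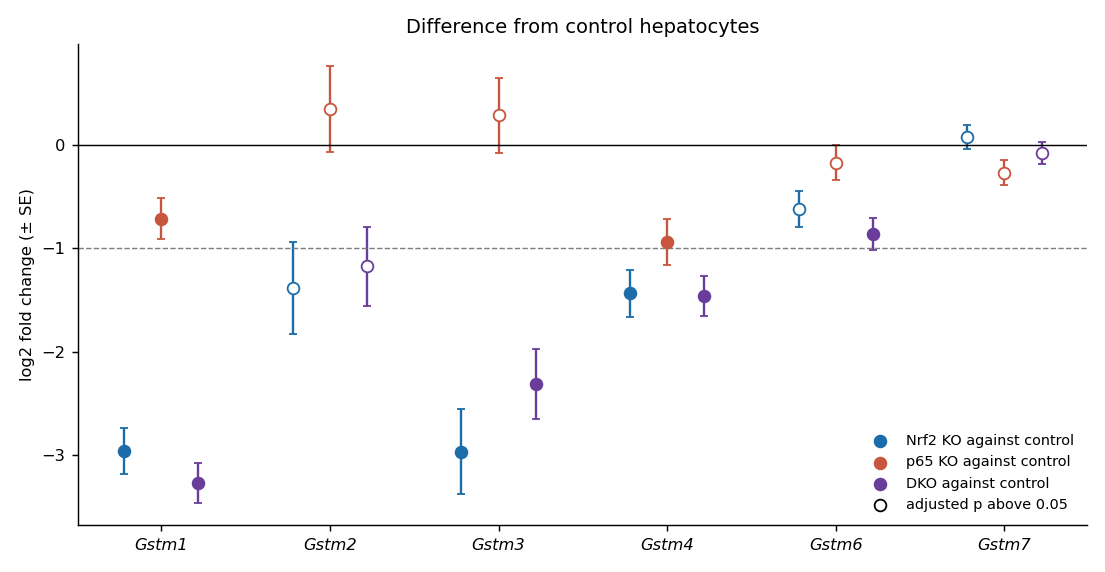
Log2 fold changes of the 6 members in Nrf2 KO, p65 KO and DKO against control, with standard errors from edgeR; filled points have an adjusted p of at most 0.05 and the dashed line marks a log2 fold change of -1. Gstm1 and Gstm3 lie between -2.31 and -3.27 in Nrf2 KO and DKO, and Gstm7 lies near 0 in all 3 comparisons.

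In p65 KO hepatocytes, Gstm1 and Gstm4 were lower than in control, with log2 fold changes nearer to 0 than in Nrf2 KO (p65 KO was not tested against Nrf2 KO). Gstm1 had 68984 and 62012 normalized counts in p65 KO, below all 3 control libraries and above all libraries without Nrf2. It fell by 0.71 ± 0.20 on the log2 scale (edgeR, adjusted p = 0.0379), to 61.1% of the control mean. Gstm4 had 2375 and 2115 normalized counts in p65 KO and fell by 0.94 ± 0.22 on the log2 scale (edgeR, adjusted p = 0.0192). Both p65 KO libraries of Gstm4 were below all control libraries. Gstm3 had 6126 and 6020 normalized counts and Gstm2 1904 and 2672, both within or above the control range, with log2 fold changes of 0.29 ± 0.36 and 0.35 ± 0.42 (edgeR, adjusted p = 0.625 and 0.605). Gstm6 had 3040 and 3386 and Gstm7 1891 and 1905 normalized counts, just below the control libraries (log2 fold changes -0.17 ± 0.17 and -0.27 ± 0.12, edgeR, adjusted p = 0.532 and 0.151).

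No member reached the call with its fold threshold in p65 KO by edgeR (0 of 6, against 6.59% of all genes called in either direction). DESeq2 also called 0 members, and 1068 genes in all. An unadjusted p under 0.05 was reached by 3 members, Gstm1, Gstm4 and Gstm7, and by 31.6% of all genes. At any fold, 2 of the 6 members passed as lower, against 6.77% of all genes, and for 4 of the 6 members the p65 KO libraries lay below all control libraries, against 23.8% of all genes. Markers of Kupffer, endothelial and stellate cells were higher in these libraries (7 of 7, 4 of 4 and 4 of 4 passed the test), with the levels given with the library totals, and their part in the lower Gstm1 and Gstm4 was not tested. In bulk RNA, fewer cells of a type and less RNA per cell cannot be told apart. The pass of Gstm1 was lost under 6 of 20 alternatives, among them scaling to equal totals (adjusted p = 0.110) and leaving out control replicate 1 or 2 (0.0947 and 0.0895) or p65 KO replicate 1 or 2 (0.143 and 0.163). With a p65 KO library left out, the remaining one is assumed to vary like the other groups, and the log2 fold changes of Gstm1 were -0.79 and -0.64. The pass of Gstm4 was lost under 3 of 20, without control replicate 1 or either p65 KO library (0.0601 to 0.0981).

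DKO hepatocytes had less Gstm1, Gstm3, Gstm4 and Gstm6 RNA than control hepatocytes. Gstm1 had 9477, 9883 and 13929 normalized counts in DKO, which was 10.3% of the control mean, and fell by 3.27 ± 0.19 on the log2 scale (edgeR, adjusted p = 2.43e-05). Gstm3 had 821, 655 and 1529 normalized counts and fell by 2.31 ± 0.34 (edgeR, adjusted p = 0.00461). Gstm4 had 1549, 1111 and 2025 normalized counts and fell by 1.46 ± 0.19 (edgeR, adjusted p = 0.00292). For these genes all 3 DKO libraries were below all control libraries. Gstm6 had 1827, 1628 and 2529 normalized counts, also below control, and fell by 0.86 ± 0.15 on the log2 scale (edgeR, adjusted p = 0.012).

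Gstm2 and Gstm7 did not pass in DKO. Gstm2 had 569, 391 and 1430 normalized counts in DKO, and the highest of these came close to the lowest control value of 1462. Its log2 fold change was -1.17 ± 0.38 (edgeR, adjusted p = 0.103). Gstm7 had 2164, 2114 and 2214 normalized counts, inside the control range, with a log2 fold change of -0.08 ± 0.11 (edgeR, adjusted p = 0.696). DKO replicate 3 was the highest of the DKO libraries for all 6 members. Without it, Gstm2 was also called (log2 fold change -1.90, adjusted p = 0.00285), and so was Gstm6 (log2 fold change -1.06, adjusted p = 0.00176).

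In DKO, 3 of the 6 members were called lower, against 1.02% of all genes, and 4 passed as lower at any fold, against 2.84% of all genes. For 5 of the 6 members all DKO libraries lay below all control libraries, against 13.2% of all genes. Of the other cell markers, 2 of 7 for Kupffer cells and 1 of 4 for stellate cells rose in DKO by edgeR, and 0 of 4 for endothelial cells and 0 of 2 for erythroid cells did. At an unadjusted p under 0.05, 7, 3, 3 and 2 of these were higher in DKO in the same order, against 22.5% of all genes in either direction. DESeq2 passed 4, 1, 1 and 2. The erythroid markers summed to between 44.2 and 120 normalized counts in control and between 144 and 834 in DKO. In DKO against p65 KO 1 Kupffer, 1 stellate and 0 endothelial markers fell by edgeR. At an unadjusted p under 0.05, 6, 4 and 4 of these were lower, against 22.5% of all genes in either direction, and DESeq2 passed 1, 3 and 2. The 2 erythroid markers were higher at an unadjusted p under 0.05 and by DESeq2, and 0 passed by edgeR. The part of these markers in the values of the members was not tested. The comparisons of Nrf2 KO, p65 KO and DKO with control share the same 3 control libraries.

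Nrf2 loss was also examined in hepatocytes without p65, by comparing DKO with p65 KO. Neither group holds a control library, but the scaling and the spread behind the p-values came from a model of all libraries, control included. Gstm1 was at 16.9% of the p65 KO mean in DKO and fell by 2.56 ± 0.20 on the log2 scale (edgeR, adjusted p = 0.000164). Gstm3 fell by 2.60 ± 0.37 (edgeR, adjusted p = 0.008), from 6126 and 6020 normalized counts in p65 KO to 821, 655 and 1529 in DKO. Gstm6 fell by 0.69 ± 0.17 on the log2 scale (edgeR, adjusted p = 0.048), a pass that was lost under 11 of 20 alternatives (adjusted p = 0.0551 to 0.189). Gstm2 had no overlap between its groups either, at a log2 fold change of -1.52 ± 0.42 and an adjusted p of 0.0676 in edgeR. It was called in 6 of 20 alternatives, among them DESeq2 (adjusted p = 0.0489). Gstm4, already lower in p65 KO, had a log2 fold change of -0.52 ± 0.21 (edgeR, adjusted p = 0.178), with its highest DKO library (2025) just below its lowest p65 KO library (2115). Gstm7 had a log2 fold change of 0.19 ± 0.12 (edgeR, adjusted p = 0.372).

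Of the 6 members, 2 were called lower in DKO against p65 KO, where 0.968% of all genes were, and 3 passed as lower at any fold, against 2.06% of all genes. For 5 of the 6 members all DKO libraries lay below both p65 KO libraries, against 20.1% of all genes.

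The difference between the 2 estimates of Nrf2 loss was tested as an interaction, the log2 fold change of DKO against p65 KO minus that of Nrf2 KO against control. By edgeR it was called for 0 of the 6 members, against 0.455% of all genes in either direction, and passed at any fold for 0, against 0.469% of all genes. DESeq2 called 0 members as well, and 249 genes in all. An unadjusted p under 0.05 was reached by 1 member, Gstm4, and by 13.8% of all genes. For Gstm4 the log2 fold change with Nrf2 loss was -1.44 with p65 and -0.52 without it, a difference of 0.91 ± 0.31 (edgeR, unadjusted p = 0.0126, adjusted p = 0.241). The differences of the other members were 0.40 ± 0.28 for Gstm1, 0.37 ± 0.52 for Gstm3, 0.11 ± 0.17 for Gstm7, -0.07 ± 0.24 for Gstm6 and -0.14 ± 0.60 for Gstm2 (edgeR, adjusted p between 0.553 and 0.946).

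**Figure D3:**
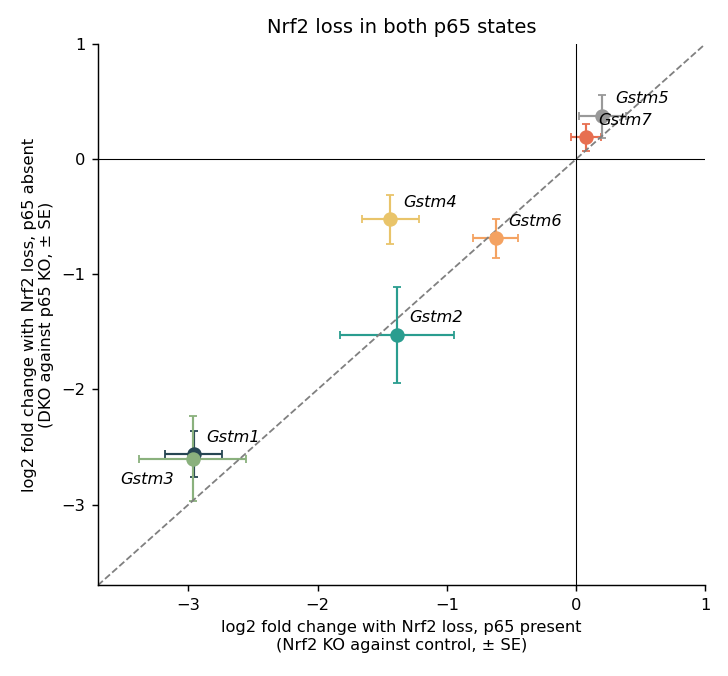
Log2 fold change with Nrf2 loss where p65 was present (horizontal axis) and where it was absent (vertical axis), with standard errors, for the 6 members and Gstm5; the dashed line marks equal values. Gstm4 lies farthest from the line, by 0.91 on the log2 scale, and Gstm1 and Gstm3 are lowest on both axes.

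The added loss of p65 in hepatocytes that already lacked Nrf2 gave no call. In DKO against Nrf2 KO, 0 of the 6 members were called by edgeR, against 0.433% of all genes in either direction, and 0 passed at any fold, against 0.513% of all genes. An unadjusted p under 0.05 was reached by 0 members, against 14.4% of all genes. DESeq2 called 0 members, and 292 genes in all. The log2 fold changes ranged from -0.31 ± 0.20 for Gstm1 to 0.65 ± 0.38 for Gstm3 (edgeR, adjusted p = 0.494 and 0.464). Gstm4 differed by -0.03 ± 0.21 on the log2 scale between these groups (edgeR, adjusted p = 0.969).

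Summed over the 6 members, mu-class RNA reached 129653, 132959 and 110162 normalized counts in control and 84320 and 78109 in p65 KO. It was 24530 and 18417 in Nrf2 KO and 16407, 15782 and 23656 in DKO. The libraries without Nrf2 therefore lay far below the others, and those of Nrf2 KO and DKO overlapped. The mean sum was 17.3% of control where Nrf2 was lost, 65.4% where p65 was lost and 14.98% where both were. Most of this sum is Gstm1. Without Gstm1 the same shares of control were 45.2%, 92.6% and 44.3%. The sum is given as a description with no test. As a share of all deposited counts, the 6 genes took 0.321% ± 0.0426 in control (SD, n = 3), 0.237% ± 0.013 in p65 KO (n = 2), 0.0559% ± 0.0145 in Nrf2 KO (n = 2) and 0.045% ± 0.00975 in DKO (n = 3).

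The composition of the mu-class RNA differed with the total. Per kilobase of transcript, Gstm1 made up 87.8% ± 1.24 of the sum in control (SD, n = 3), 81.8% ± 1.72 in p65 KO (n = 2), 68.6% ± 1.63 in Nrf2 KO (n = 2) and 63.8% ± 2.69 in DKO (n = 3). Gstm7, whose own level did not pass the test in any comparison, made up 1.83% ± 0.392 in control, 2.29% ± 0.137 in p65 KO, 11.7% ± 1.2 in Nrf2 KO and 12.3% ± 2.41 in DKO. The share of Gstm3 was 8.0% ± 0.335 in p65 KO and 4.24% ± 1.27 in control, without overlap between the libraries, at counts that did not pass the test.

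**Figure D4:**
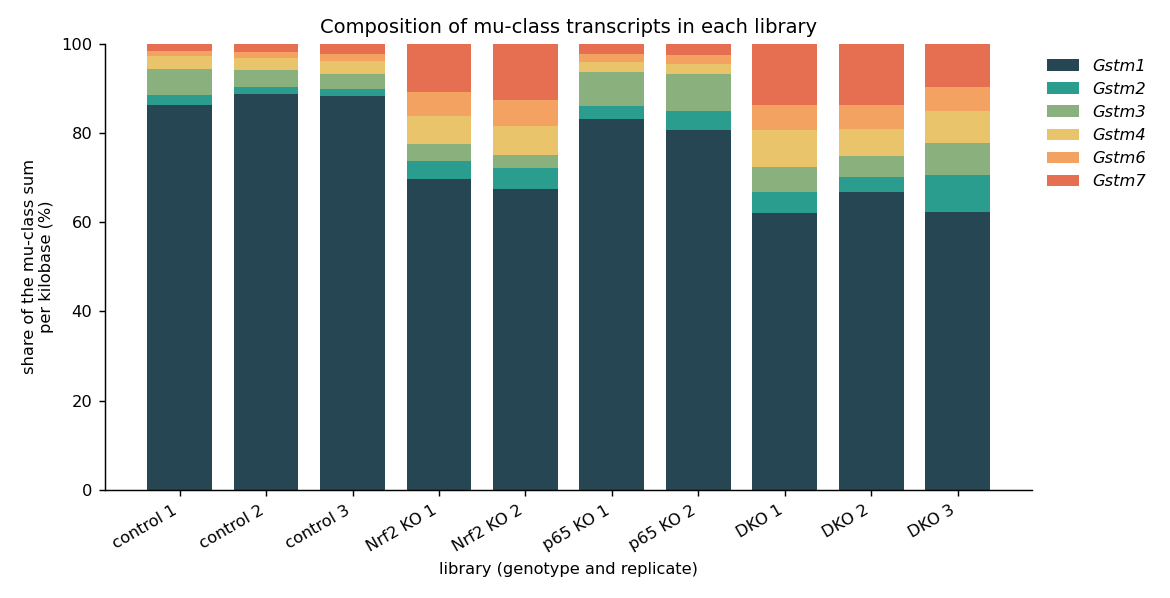
Share of each member in the mu-class sum per kilobase of transcript (percent, stacked to 100), for each library. Gstm1 takes between 80.6% and 88.8% in control and p65 KO and between 62.0% and 69.7% in Nrf2 KO and DKO, where Gstm7 takes between 9.56% and 13.8%.

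Across the 10 libraries, the members other than Gstm7 varied together, as a description of libraries that share their genotypes. On log2 normalized counts with a pseudocount of 1, Pearson's r between 2 of these 5 members was between 0.763 for Gstm2 and Gstm4 and 0.933 for Gstm1 and Gstm6. The r of Gstm7 with the other members was between -0.431 for Gstm3 and 0.0783 for Gstm4.

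The tested genes beside the cluster did not pass in Nrf2 KO or DKO by edgeR. The start of Gstm5 lay at -122 kb from that of Gstm1. Gstm5 had 300, 336 and 306 normalized counts in control, 334 and 389 in Nrf2 KO, 283 and 275 in p65 KO, and 450, 282 and 354 in DKO. It did not pass in any of the 6 comparisons (edgeR, log2 fold change 0.20 ± 0.18 in Nrf2 KO with adjusted p = 0.826, and 0.20 ± 0.17 in DKO with adjusted p = 0.497). Of 13 other genes that flank the cluster, 10 had enough counts to be tested, and 0 passed in edgeR in Nrf2 KO or DKO. At an unadjusted p under 0.05 there were 0 in Nrf2 KO and 2 in DKO, 1 in each direction, and DESeq2 passed 0 and 1. Of all genes, 9.38% in Nrf2 KO and 22.5% in DKO had an unadjusted p under 0.05. Their median log2 fold change was 0.09 in Nrf2 KO and 0.14 in DKO, beside medians of -1.41 and -1.32 for the 6 members and 0.00 and 0.02 for all genes. The lowest p-values in DKO were those of Sort1, which encodes the sorting receptor sortilin (log2 fold change -0.57 ± 0.18, adjusted p = 0.0948), Ampd2, an AMP deaminase (0.32 ± 0.14, adjusted p = 0.201), the proteasome subunit gene Psma5 (-0.23 ± 0.13, adjusted p = 0.317) and Cyb561d1 (0.25 ± 0.18, adjusted p = 0.451), all by edgeR. In p65 KO 1 of the 10 was higher, Csf1, which encodes a growth factor of macrophages (1.53 ± 0.35, edgeR, adjusted p = 0.0187) and was named here after its value was seen.

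**Figure D5:**
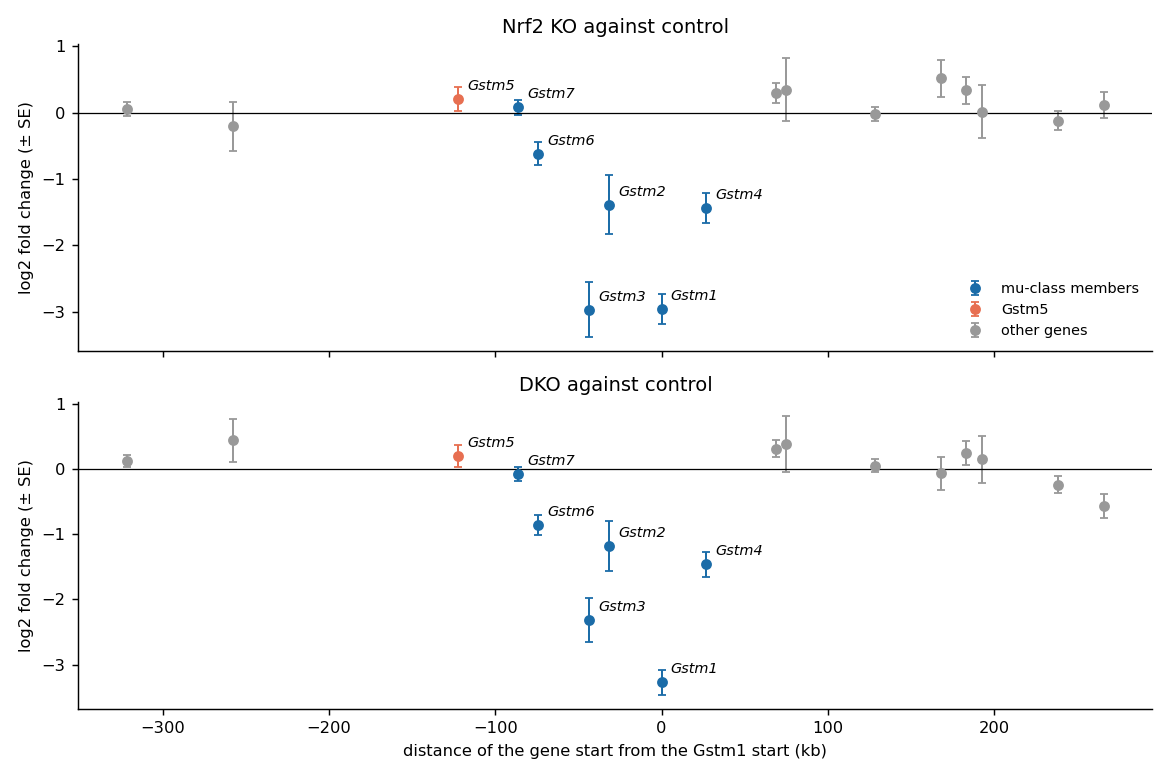
Log2 fold change with standard error in Nrf2 KO (top) and DKO (bottom) against control, by the distance of each gene's start from the Gstm1 start in kb, for the members, Gstm5 and the 10 flanking genes tested. Gstm1, Gstm3, Gstm2 and Gstm4 lie lowest, at -1.17 or less in both panels, Gstm6 is at -0.62 and -0.86, and the other genes lie between -0.57 and 0.52.

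Within the cluster, the estimated log2 fold changes of adjacent genes were unequal in size, and no test compared 1 gene with another. The starts of Gstm7 and Gstm6 lie at -86.2 and -74.3 kb from that of Gstm1. Their log2 fold changes in DKO were -0.08 ± 0.11 and -0.86 ± 0.15 (SE, edgeR). Those of Gstm3 and Gstm2, at -43.6 and -31.6 kb, were -2.31 ± 0.34 and -1.17 ± 0.38, of which that of Gstm2 did not pass.

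Other classes of glutathione S-transferase were lower in part. Of 20 genes on this list 18 were tested. By edgeR 5 fell in Nrf2 KO, 7 in DKO and 4 in DKO against p65 KO, with 0 higher. In these comparisons 0.594%, 2.84% and 2.06% of all genes passed as lower. DESeq2 passed 1 as higher, in Nrf2 KO, and at an unadjusted p under 0.05 there was 1 higher in Nrf2 KO, 0 in DKO and 1 in DKO against p65 KO. Of all genes, 9.38% in Nrf2 KO and 22.5% in each of the other 2 had an unadjusted p under 0.05, in either direction. In p65 KO 0 of the 18 passed in edgeR, where 6.77% of all genes passed as lower, and DESeq2 passed 3, all lower. There 7 had an unadjusted p under 0.05 (6 lower, 1 higher), against 31.6% of all genes. The median log2 fold change of the list was -0.42 in Nrf2 KO, -0.41 in p65 KO and -0.40 for DKO, beside 0.00, 0.00 and 0.02 for all genes. The alpha-class gene Gsta2 had between 1474 and 1784 normalized counts in control, 307 and 310 in Nrf2 KO, 891 and 1112 in p65 KO, and between 212 and 370 in DKO. It fell by 2.36 ± 0.24 on the log2 scale in Nrf2 KO and by 2.57 ± 0.21 in DKO (edgeR, adjusted p = 0.000999 and 0.000126). Gsta1, of the same class, had between 381 and 467 normalized counts in control, 28.7 and 12.1 in Nrf2 KO, and 0, 21.3 and 14.9 in DKO (edgeR, adjusted p = 0.0122 and 0.00133). Gsta13 had between 154 and 241 normalized counts in control and was at 0 in both Nrf2 KO libraries and in 2 of the 3 DKO libraries. Gsta4, which acts on products of lipid peroxidation, fell by 1.11 ± 0.21 in Nrf2 KO and by 1.27 ± 0.19 in DKO (edgeR, adjusted p = 0.0427 and 0.0042).

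Genes that supply glutathione or export its conjugates were also lower in part. Of 16 such genes 15 were tested, of which 3 fell in Nrf2 KO by edgeR, against 0.594% of all genes that passed as lower. In p65 KO 4 fell and 1 rose, and 6 fell in DKO, where 6.77% and 2.84% of all genes passed as lower. DESeq2 passed 6, 5 and 7 as lower in Nrf2 KO, p65 KO and DKO, and 1 as higher, in p65 KO. The list's median log2 fold change was -0.49, -0.36 and -0.44 in these comparisons, beside 0.00, 0.00 and 0.02 for all genes. Gclc, the catalytic subunit of the enzyme that limits glutathione synthesis, fell by 1.21 ± 0.19 on the log2 scale in Nrf2 KO, by 1.33 ± 0.19 in p65 KO and by 2.20 ± 0.17 on loss of both (edgeR, adjusted p = 0.0179, 0.00281 and 0.00012). Gclc also passed in DKO against Nrf2 KO, where 0 members did (log2 fold change -0.99 ± 0.18, edgeR, adjusted p = 0.046). Gsr, which regenerates reduced glutathione, fell by 0.59 ± 0.14 without p65 and by 0.91 ± 0.12 without both factors (edgeR, adjusted p = 0.0198 and 0.00304). Abcc3, a basolateral exporter of organic anions, had between 9159 and 11190 normalized counts in control, 1048 and 137 in Nrf2 KO, and between 337 and 727 in DKO (edgeR, adjusted p = 0.0253 and 0.00304). Abcg2, a canalicular exporter, fell by 1.16 ± 0.20 in Nrf2 KO, by 0.75 ± 0.19 in p65 KO and by 0.93 ± 0.17 when both were lost (edgeR, adjusted p = 0.0253, 0.0277 and 0.0138).

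Of 14 genes known as Nrf2 targets in many tissues, all were tested, and 6 of them are shared with the glutathione list. By edgeR 6 fell in Nrf2 KO and 9 in DKO, against 0.594% and 2.84% of all genes that passed as lower. In these comparisons 0 were higher by edgeR, by DESeq2 or at an unadjusted p under 0.05. In p65 KO 3 fell and 1 rose, where 6.77% of all genes passed as lower. Ephx1, the microsomal epoxide hydrolase, fell by 1.96 ± 0.21 on the log2 scale in Nrf2 KO, by 0.98 ± 0.20 in p65 KO and, with both lost, by 2.00 ± 0.18 (edgeR, adjusted p = 0.00141, 0.0109 and 0.000288). Srxn1, which repairs oxidized peroxiredoxins, had log2 fold changes of -1.32 ± 0.17, -0.77 ± 0.17 and -1.34 ± 0.15 in the same order (edgeR, adjusted p = 0.00597, 0.0157 and 0.00133). These genes passed as lower in both p65 KO and Nrf2 KO, as Gstm1 and Gstm4 did.

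CAR and PXR are xenobiotic receptors that also control drug metabolism enzymes of the liver. Of 10 genes on their list, 1 fell in Nrf2 KO and in DKO, the CAR gene Nr1i3 itself. In these comparisons 0.594% and 2.84% of all genes passed as lower. Nr1i3 had 4301, 4522 and 4679 normalized counts in control, 1966 and 1892 in Nrf2 KO, 6446 and 5794 in p65 KO, and 1329, 1384 and 2148 in DKO. It fell by 1.22 ± 0.19 on the log2 scale in Nrf2 KO and by 1.47 ± 0.17 in DKO (edgeR, adjusted p = 0.0172 and 0.00133). In p65 KO 1 of the 10 fell, the cytochrome P450 gene Cyp3a11 (log2 fold change -1.05 ± 0.26, edgeR, adjusted p = 0.0242). Another 3 rose, among them the P450 reductase gene Por (1.48 ± 0.27, edgeR, adjusted p = 0.00711). Each of these was also called, against 6.59% of all genes called in either direction. Ugt1a1, which conjugates bilirubin, had a log2 fold change of -0.07 ± 0.20 in Nrf2 KO and one of -0.57 ± 0.18 in DKO (edgeR, adjusted p = 0.968 and 0.0925). Of 10 genes of Nrf2 and NF-κB regulation, 0 fell in edgeR or DESeq2 in a comparison with control. In edgeR 0.594%, 6.77% and 2.84% of all genes passed as lower in Nrf2 KO, p65 KO and DKO. At an unadjusted p under 0.05, 1 fell in each, against 9.38%, 31.6% and 22.5% of all genes in either direction. Nfe2l2 rose in Nrf2 KO and DKO and Bach1, a repressor at antioxidant response elements, in p65 KO.

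Among the genes whose levels followed the mu-class sum most closely were several that encode drug-metabolising enzymes. Likeness was measured as Pearson's r of log2 normalized counts with a pseudocount of 1 over the 10 libraries, among 9390 genes outside the cluster that averaged 100 normalized counts or more. The highest r was that of Aox1, an aldehyde oxidase (0.985), followed by the glucuronosyltransferase gene Ugt2b35 (0.981), Pir, which encodes pirin (0.976), and the glucuronosyltransferase genes Ugt2b5 (0.975) and Ugt2b36 (0.974). Aox1 had between 4227 and 6314 normalized counts in control, 1228 and 990 in Nrf2 KO, 4093 and 3435 in p65 KO, and between 770 and 1104 in DKO. The lowest r was that of Tpst1, a tyrosylprotein sulfotransferase (-0.968), followed by Fras1 (-0.93), Plekhm2 (-0.922), the glycine methyltransferase gene Gnmt (-0.921) and the coagulation factor gene F7 (-0.92). Tpst1 had between 782 and 843 normalized counts in control, 1034 and 1187 in Nrf2 KO, 878 and 905 in p65 KO, and between 1079 and 1117 in DKO. These coefficients are taken over libraries of 4 genotypes and carry no test.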

How the data were processed

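RNA of freshly isolated hepatocytes from 10 mice was sequenced as single-end reads of stranded, poly-A-enriched libraries. Per the labels and the methods, the authors quantified the reads with Salmon 1.10.3 against GRCm39 transcripts (GENCODE M33), and the deposited table gives whole-number estimated counts for each gene in each mouse. Although the table is named as normalized, totals and median-of-ratios size factors (0.879 to 1.26) differed between libraries, so the deposited values were used as estimated counts. The way transcript estimates became gene estimates is not given in the sources used here. Reads shared between similar genes are divided by Salmon's model, and intervals of such counts do not include that error.

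Gene names, positions and transcript lengths came from GENCODE M39, which held 21926 of the 21939 identifiers. The 13641 genes whose counts summed to 10 or more entered the quasi-likelihood test of edgeR 4.0.16 (R 4.3.3), in 1 model of the 4 genotypes after TMM normalization. Within each comparison, Benjamini-Hochberg adjustment covered all genes tested. Calls used the thresholds of the study, 0.05 for the adjusted p and 1 for the size of the log2 fold change. The test was also run on counts simulated from its own fitted means and spread, which does not check departures of the data from that model. To obtain normalized counts, each library was scaled by its TMM-adjusted total, taken relative to the average library. Columns were assigned to mice by name, and 0 value columns had no sample. Replicates are separate mice, and replicates of 1 genotype differed by more than sampling noise (chi-square per degree of freedom of 44.8 or more).

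Named were the 6 members, Gstm5, the targeted genes, up to 4 genes of each list with the lowest p in DKO, and the 5 genes most and least like the mu-class sum. The members and lists were chosen with earlier results of these data known. The study itself names Gstm1, Gstm3, Gsta2, Gstp1, Gstp2, Gclc, Srxn1, Nqo1, Ephx1, Abcg2 and Ugt2b genes, among others, so the members and their lists are not independent evidence of direction. Alternatives were other scalings, filters, DESeq2 1.42.0, limma 3.58.1 with pseudocounts of 1 and 10, a replicate block, fits of the compared genotypes alone, and fits without 1 library at a time. Sequences were read from GRCm39 and GENCODE M39 transcripts, and coding sequences were aligned with Biopython 1.88. Protein sequences were not used here. Plots were made in Python 3.11.15 with matplotlib 3.10.9.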

Additional observations from a re-analysis of the deposited data

How the results depend on the processing

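In 675 of 714 recomputed values of single members the direction and the call were as reported, 11 gained a call and 6 lost one. The sign turned in the other 22, of which 15 left out a library and 0 passed an adjusted p as reported or as recomputed (lowest recomputed adjusted p = 0.393). In DKO against Nrf2 KO the log2 fold change of Gstm2 (0.21 as reported) was -0.0069 and -0.0042 by limma with pseudocounts of 1 and 10 and -0.15 with the replicate block, and ranged from -0.51 to 0.54 without 1 library, and that of Gstm4 (-0.03) was 0.00083 with upper-quartile scaling and ranged from -0.25 to 0.19. Scaling to equal totals gave 0.00505 for Gstm6 in p65 KO, and -0.0804 and -0.163 for Gstm7 in DKO against p65 KO and in the interaction. Without 1 library the interaction ranged from -0.86 to 0.19 for Gstm2, -0.0633 to 0.783 for Gstm3 and -0.264 to 0.0721 for Gstm6, and Gstm7 from -0.16 to 0.0049 in DKO and -0.0348 to 0.179 in Nrf2 KO. The causes were not tested. Leaving out 1 control or DKO library at a time moved the members called from 2 to 4 in Nrf2 KO (4 without DKO replicate 3, with Gstm2). In p65 KO they moved from 0 to 1 (1 without control replicate 3, Gstm4), and in DKO from 3 to 5 (5 without DKO replicate 3). All genes called in either direction moved in the same fits from 37 to 84 in Nrf2 KO, from 498 to 954 in p65 KO and from 147 to 316 in DKO. The log2 ratio of the mu-class sum was reported as -2.53 in Nrf2 KO, -0.61 in p65 KO, -2.74 in DKO, -2.13 in DKO against p65 KO and -0.21 in DKO against Nrf2 KO. With 1 library of any group left out, the last of these ranged from -0.41 to 0.0158, so that its sign turned without Nrf2 KO replicate 1. Without Gstm1 in the sum the first 4 of these ratios were -1.15, -0.11, -1.18 and -1.06. Scaling to equal totals moved the median of all genes by 0.18 (p65 KO) and -0.27 (DKO against p65 KO), and the ratios of the sum there became -0.44 and -2.40. Gstm2 passed in Nrf2 KO when only the genotypes compared were fitted (adjusted p = 0.022) and without DKO replicate 3 (0.0265), and Gstm6 passed there by DESeq2 (0.032) and without DKO replicate 3 (0.0456).

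Whether the replicate numbers pair the mice could not be decided. Correlations of deviations from the genotype mean were between -0.232 and 0.113 over 13 pairs of equal number (median -0.0562). Over 24 pairs of unequal number they were between -0.170 and 0.232 (median 0.0301). In Nrf2 KO and p65 KO, with 2 mice each, the deviations mirror each other, so many of these correlations are tied and not independent. With the replicate block, 3, 0 and 3 members were called in Nrf2 KO, p65 KO and DKO, and the adjusted p of Gstm1 in p65 KO was 0.0872. Nrf2 KO and p65 KO had 2 mice each, and the effect of reads shared between Gstm3, Gstm2, Gstm1 and Gstm6 on their counts was not tested.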
